A study of Mus musculus with 6 samples.

Results

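The collagen genes of mouse heart cells are described here, as a family of 42. They are all rows of a raw count table whose symbol has the form of a collagen chain (Col, a type number, a, a chain number), out of 15159 genes in all. All 42 had enough reads to be tested. GENCODE M21 lists 44 genes with such names, and the other 2, Col6a5 and Col25a1, have no row and were not analysed here. Collagens are the triple-helical proteins that give connective tissue its fibres, sheets and filaments. A collagen molecule is wound from 3 chains, and each kind of chain has a gene of its own. In the heart, fibroblasts deposit the fibrils of types I and III between the muscle cells, and sheets of type IV surround muscle, endothelial and smooth muscle cells.

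The cells came from hearts of C57BL/6 x 129S4/SvJae mouse embryos at day 18.5 and were cultured for 4 days on a soft silicone substrate of 13 kPa. H3K9M cells carried an inducible transgene for histone H3.3 with methionine in place of lysine 9 (3 libraries), which is known to block methylation of that residue. H3WT cells, their controls, carried an inducible transgene for unmutated H3.3 (3 libraries). Both groups received doxycycline at 2 µg/ml on days 0, 1 and 2 of culture, and no label or protocol names the promoter or the cells in which the transgene was active. The cultures were mixed heart cells, not a purified type. The culture and its substrate are as the protocols give them for all 6 libraries, but the titles differ in form: in both groups that of replicate 2 lacks the word Soft and that of replicate 1 the tag for the day. The titles also carry an M number, shared between groups by replicates 1 and 3 but not 2, whose meaning is not stated. No label ties a library to an animal, so p-values rest on the spread between libraries, which may be technical.

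Libraries held 55550379 to 67994773 reads assigned to genes. Collagen transcripts made up 2.85%, 3.39% and 3.83% of the reads in H3K9M replicates 1, 2 and 3, against 3.79%, 3.60% and 3.12% in H3WT replicates 1, 2 and 3. The 2 ranges overlap. Cardiac muscle genes were abundant in every library: 10 cardiomyocyte markers summed to 31104 to 34768 CPM in H3K9M and 29129 to 35869 CPM in H3WT. None of the 10 passed in edgeR, and 8 fold changes were positive and 2 negative. The authors' deposited table calls 1 of the 10, Pln, higher in H3K9M (DESeq2 adjusted p = 0.0311), where it calls 4.10% of all genes. Sums of markers of smooth muscle cells and pericytes, the epicardium, macrophages, and Schwann and neural cells overlapped between groups, and of these marker genes only Smtn passed, lower in H3K9M (edgeR adjusted p = 0.0443). Smtn kept its call without H3WT replicate 1 and lost it when any other of the 6 was left out, at edgeR adjusted p-values of 0.0608 to 0.184. The authors' deposited table calls 2 of the 11 smooth muscle and pericyte markers, where it calls 4.10% of all genes. They are Smtn, lower, and Abcc9, higher in H3K9M, with DESeq2 adjusted p-values of 0.0134 and 0.0181. Levels are in CPM (read counts scaled to a common library size), unless given per kilobase of exon.

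The question put to these libraries was which collagen transcripts change in abundance when cells make H3K9M in place of the unmutated histone. In edgeR's quasi-likelihood test, at an adjusted p under 0.05 over all 14758 genes tested, 2 collagens were higher in H3K9M, Col6a3 and Col7a1, and 2 were lower, Col18a1 and Col9a2. These 4 are 9.52% of the 42, where 1.99% of all tested genes were called. By direction, 0.935% of all tested genes were called higher and 1.05% lower. The chains that make up most collagen RNA, those of types I, III, IV and V, did not pass. Over the 42 genes, 13 log2 fold changes were positive and 29 negative, with a median of -0.12, beside -0.0024 over all tested genes. The groups did not overlap for 8 collagens, 19.0% of the 42, against 22.6% of all tested genes. In these bulk libraries, fewer cells of a type and less RNA per cell cannot be told apart.

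Collagen RNA was concentrated in few genes. Col4a1, Col1a1, Col4a2, Col1a2, Col3a1 and Col5a1 held 81.0% of all collagen reads. Per kilobase of exon, Col1a1 stood at 904 CPM per kilobase in H3K9M and 838 in H3WT, and Col4a1 at 901 in H3K9M and 859.6 in H3WT. These were the most abundant chains on that scale in either group. The scale divides by all annotated exon bases of a gene, 12426 for Col1a2 and 6563 for Col1a1, so ranks on it depend on the annotation. At the other end, 18 of the 42 genes were under 10 CPM in both groups, and 8 of these under 1 CPM. Among the 18 low genes, 13 fold changes were negative with a median log2 value of -0.79 and a median standard error of 0.56. Among the 18 genes above 100 CPM, 14 were negative with a median of -0.088 and a median standard error of 0.13. A change of a given size was thus measured with less error in the abundant collagens than in the scarce ones.

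Summed over a class, levels of the main collagens did not separate the groups. The 11 fibrillar genes summed to 13868, 18707 and 22136 CPM in H3K9M, against 22473, 20511 and 15869 CPM in H3WT. The fibrillar sum was lowest in H3K9M replicate 1 and highest in H3WT replicate 1, and the groups overlapped. The 6 basement membrane genes summed to 11614, 11180.5 and 12818 CPM in H3K9M, against 10992, 12105 and 12039.7 CPM in H3WT, a range of libraries narrower than that of the fibrillar sum. The 2 multiplexins, Col15a1 and Col18a1, summed to 539.6, 548 and 552 CPM in H3K9M, against 659, 596 and 553 CPM in H3WT. All 3 H3K9M sums of the multiplexins lay below the lowest H3WT sum, the nearest pair by less than 1 CPM. The other 23 genes summed to 2697, 2828 and 3320.3 CPM in H3K9M, against 3343, 3055 and 2752 CPM in H3WT, with overlap. Class sums were not tested, because the classes were chosen with earlier results known.

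**Figure D1:**
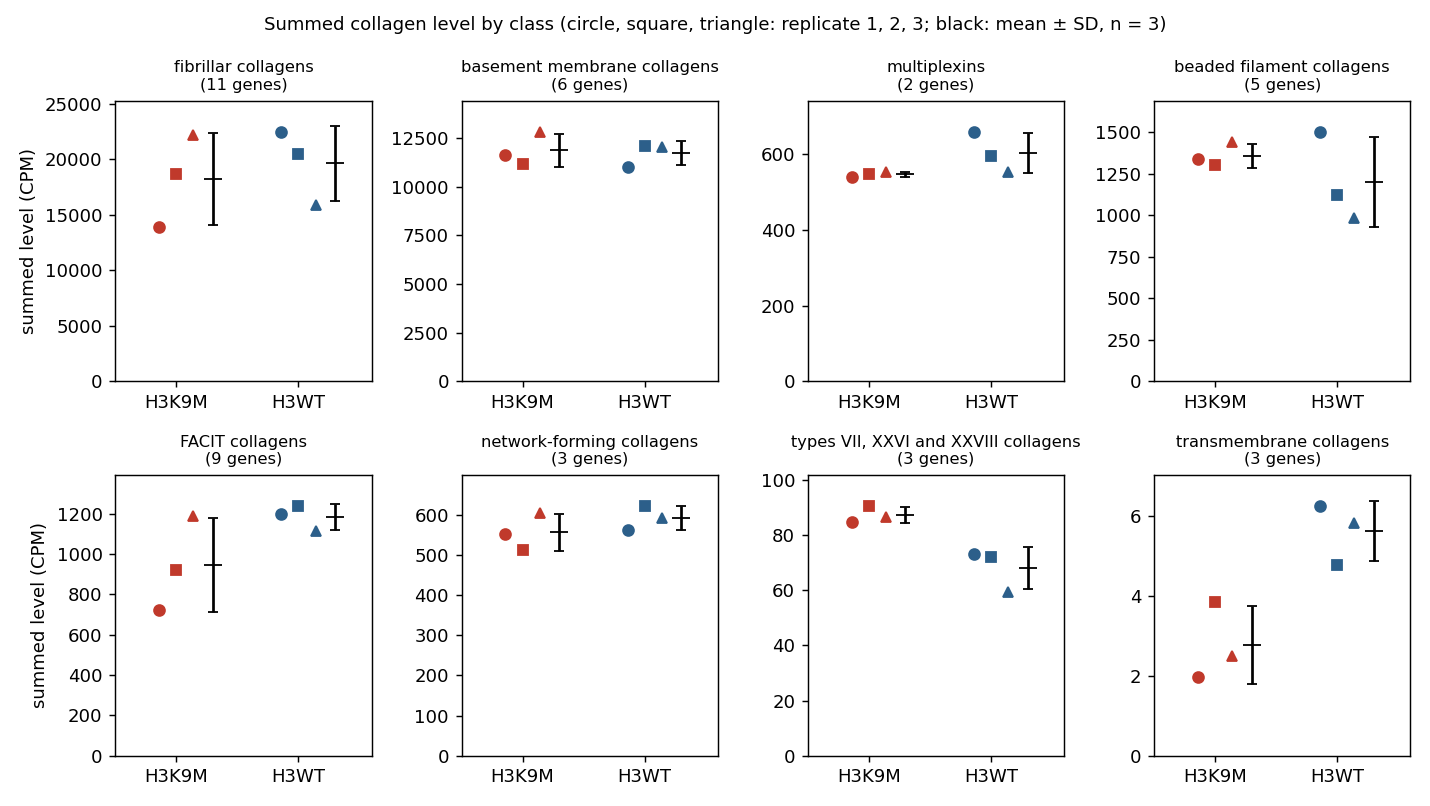
Summed level of each collagen class in CPM (vertical axis, from 0) in the 3 H3K9M (red) and 3 H3WT (blue) libraries, with the mean and SD beside the points. The fibrillar sums overlap between the groups, while the sums of the 3 transmembrane genes lie at 1.96 to 3.85 CPM in H3K9M and 4.77 to 6.24 CPM in H3WT.

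The multiplexins are collagens of the basement membrane zone whose triple helix is interrupted many times, and their C-terminal fragments are released as restin (Col15a1) and endostatin (Col18a1). Of this pair, Col18a1 fell and Col15a1 did not pass. Col18a1 stood at 66.9, 74.4 and 79.0 CPM in H3K9M, against 143, 133 and 129 CPM in H3WT. Every H3K9M library was below every H3WT library, and the highest H3K9M value was 79.0 CPM against a lowest H3WT value of 129 CPM. The means were 73.5 ± 6.11 CPM in H3K9M and 135 ± 7.16 CPM in H3WT (SD, n = 3 each). The log2 fold change was -0.88 ± 0.083 (edgeR adjusted p = 0.00371), a level 1.84 times lower, with a 95% interval of -1.07 to -0.69. The call was kept without each of the 6 libraries in turn, with edgeR adjusted p-values from 0.00461 to 0.0278, and it had the smallest p of the 42 genes. The authors' deposited table gives -0.82 ± 0.11 for Col18a1, with a DESeq2 adjusted p of 9.12e-11.

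Col15a1, the other multiplexin, stood at 473, 473 and 473 CPM in H3K9M, against 517, 463 and 424 CPM in H3WT. The 3 H3K9M values lay inside the H3WT range and within 1 CPM of each other. Its log2 fold change was 0.015 ± 0.089 (edgeR adjusted p = 0.956), with a 95% interval of -0.19 to 0.22, which leaves out a fall of the size seen for Col18a1. Within a library, the ratio of Col15a1 to Col18a1 reads was 7.06, 6.35 and 5.99 in H3K9M, against 3.62, 3.47 and 3.30 in H3WT. All 3 ratios were higher in H3K9M, by 0.90 on the log2 scale, and a ratio within a library does not depend on its depth. With Col15a1 nearly unchanged, this difference restates the fall of Col18a1 and is not a separate result. A two-sided exact permutation test gave p = 0.1, the smallest that 3 libraries against 3 allow, and 0.36 adjusted over the 12 chain pairs compared. No pair could fall under 0.05 in this test, and the pairs were chosen with earlier results known.

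Col18a1 lies on mouse build GRCm38 (GENCODE M21) on chromosome 10 at 77052178 to 77166548, on the minus strand, and Col15a1 on chromosome 4 at 47208161 to 47313167, on the plus strand. RefSeq gives Col18a1 a pair of start sites 52.8 kb apart, and gene counts do not separate the transcripts that begin at each. The letters before the first RefSeq start of Col18a1 and before that of Col15a1 are shown because 1 of these paralogues passed and the other did not, with those of Col6a3 and Col7a1, the collagens that rose. They are RefSeq sequences of build GRCm38.p6, cut where GENCODE annotates an exon, at chr10:77166549-77166780 (minus strand), chr4:47207762-47208011 (plus), chr1:90843972-90844221 (minus) and chr9:108953336-108953585 (plus). Capitals mark matches, on either strand, to the GC box GGGCGG, the CCAAT box CCAAT or the TATA box TATAAA.
Col18a1: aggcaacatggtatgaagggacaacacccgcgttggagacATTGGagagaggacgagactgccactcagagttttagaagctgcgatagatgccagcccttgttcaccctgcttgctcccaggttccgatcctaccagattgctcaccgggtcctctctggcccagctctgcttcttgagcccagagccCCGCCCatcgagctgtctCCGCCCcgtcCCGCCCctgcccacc
Col15a1: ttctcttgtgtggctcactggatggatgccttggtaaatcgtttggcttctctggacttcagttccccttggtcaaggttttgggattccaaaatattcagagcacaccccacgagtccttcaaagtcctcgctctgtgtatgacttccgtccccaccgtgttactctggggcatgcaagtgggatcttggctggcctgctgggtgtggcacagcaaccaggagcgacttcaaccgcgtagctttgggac
Col6a3: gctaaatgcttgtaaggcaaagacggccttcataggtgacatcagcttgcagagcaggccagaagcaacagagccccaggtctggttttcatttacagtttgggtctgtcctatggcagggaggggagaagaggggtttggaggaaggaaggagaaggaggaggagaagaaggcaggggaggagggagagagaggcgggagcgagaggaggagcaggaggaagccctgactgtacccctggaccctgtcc
Col7a1: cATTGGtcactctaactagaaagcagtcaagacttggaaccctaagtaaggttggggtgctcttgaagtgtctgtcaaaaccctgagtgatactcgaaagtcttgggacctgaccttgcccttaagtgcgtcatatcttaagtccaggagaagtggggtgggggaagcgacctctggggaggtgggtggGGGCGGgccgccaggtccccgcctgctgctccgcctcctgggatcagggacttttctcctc

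The 232 bases shown for Col18a1 hold 3 GC boxes, 1 CCAAT box and 11 CpG dinucleotides. They leave out the 18 bases next to the RefSeq start, which GENCODE annotates as exon, so this stretch is shorter than the others. The 250 bases before the Col15a1 start hold 8 CpG and none of the 3 motifs, and those of Col6a3 hold 3 CpG and none of the motifs. The Col7a1 stretch has 1 GC box, 1 CCAAT box and 7 CpG. Among 32851 RefSeq windows of 250 bases, 32.7% hold a GC box, 33.8% a CCAAT box and 12.4% a TATA box, with a median of 6 CpG. No match shown overlaps another, and a match is a description of the sequence only. Not shown are the sequences before Col9a2, which also fell, and before the second Col18a1 start, where an annotated exon cut the stretch short.

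Markers of endothelial cells, which lie on a basement membrane, were at lower summed levels in H3K9M, as Col18a1 was. The 13 endothelial markers summed to 156, 234 and 184 CPM in H3K9M, against 261, 269 and 343 CPM in H3WT, without overlap between groups, and 12 of the 13 fold changes were negative with a median of -0.59. Of these 13 markers 2 passed the test, Npr3 and Nos3, where 1.99% of all tested genes did, and none was at 0 in any library. Npr3 lost its call without H3K9M replicates 1 or 2 or H3WT replicate 2, at edgeR adjusted p-values of 0.0607, 0.0748 and 0.0972. Nos3, at an edgeR adjusted p of 0.0444, lost its call whichever library was left out (0.0753 to 0.126) and with limma-voom (0.0517). The authors' deposited table gives Nos3 an adjusted p of 0.186 and does not call it. It calls 3 of the 13, all lower in H3K9M, where it calls 4.10% of all genes. They are Npr3, Egfl7 and Kdr, with DESeq2 adjusted p-values of 3.69e-07, 0.0311 and 0.0343. DESeq2 run on the deposited counts called 4 of the 13, where it called 7.18% of all genes with an adjusted p. Other collagens of vessel basement membranes did not pass in the same libraries: Col15a1, and Col4a1 and Col4a2, whose sheets also surround muscle cells. The part of endothelial cells in the lower level of Col18a1, or in the levels of these other collagens, was not tested.

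Type VI collagen forms beaded microfilaments around cells from chains α1, α2 and α3, of which α3, encoded by Col6a3, is the longest and releases the fragment endotrophin. Col6a3 rose while the genes of its partner chains did not pass. Col6a3 stood at 726, 464 and 589 CPM in H3K9M, against 365, 344 and 323 CPM in H3WT. The groups did not overlap, and H3K9M replicate 1 was highest. The means were 593 ± 131 CPM in H3K9M and 344 ± 21.5 CPM in H3WT (SD, n = 3 each). Col6a3 was 1.72 times higher, in log2 terms 0.79 ± 0.15 (edgeR adjusted p = 0.0420). The call was lost in 5 of 6 fits with 1 library left out. The edgeR adjusted p was 0.0787 without H3K9M replicate 1 and 0.116 without H3K9M replicate 3. It was 0.0647, 0.165 and 0.0673 without H3WT replicates 1, 2 and 3, and 0.0264 without H3K9M replicate 2, where the call was kept. The log2 fold change stayed between 0.61 and 0.93 in these fits. The authors' deposited table gives 0.79 ± 0.14 for Col6a3 (DESeq2 adjusted p = 6.98e-06).

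Col6a1 stood at 355, 471 and 481 CPM in H3K9M, against 637, 439.5 and 355 CPM in H3WT. Col6a2 stood at 252, 365 and 365 CPM in H3K9M, against 497, 334 and 302 CPM in H3WT. For both partner chains the highest library was H3WT replicate 1 and the groups overlapped. The log2 fold change of Col6a1 was -0.13 ± 0.21 (edgeR adjusted p = 0.808) and that of Col6a2 -0.21 ± 0.20 (edgeR adjusted p = 0.679). The ratio of Col6a3 to Col6a1 reads was 2.04, 0.985 and 1.22 in H3K9M, against 0.574, 0.784 and 0.907 in H3WT. All 3 ratios were higher in H3K9M, by 0.86 on the log2 scale (exact permutation p = 0.1, adjusted 0.36). This difference was 0.57 without H3K9M replicate 1. The ratio of Col6a1 to Col6a2, whose genes lie 85.2 kb apart on chromosome 10, was 1.41, 1.29 and 1.32 in H3K9M, against 1.28, 1.32 and 1.18 in H3WT, with overlap. Col6a3 is on chromosome 1 at 90765923 to 90843971. Col18a1 lies 326 kb from Col6a1 on the same strand of chromosome 10, and only Col18a1 of these 3 neighbours passed. Of the remaining chains of the type, Col6a6 was at most 2.07 CPM and Col6a4 at most 0.410 CPM in any library.

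**Figure D2:**
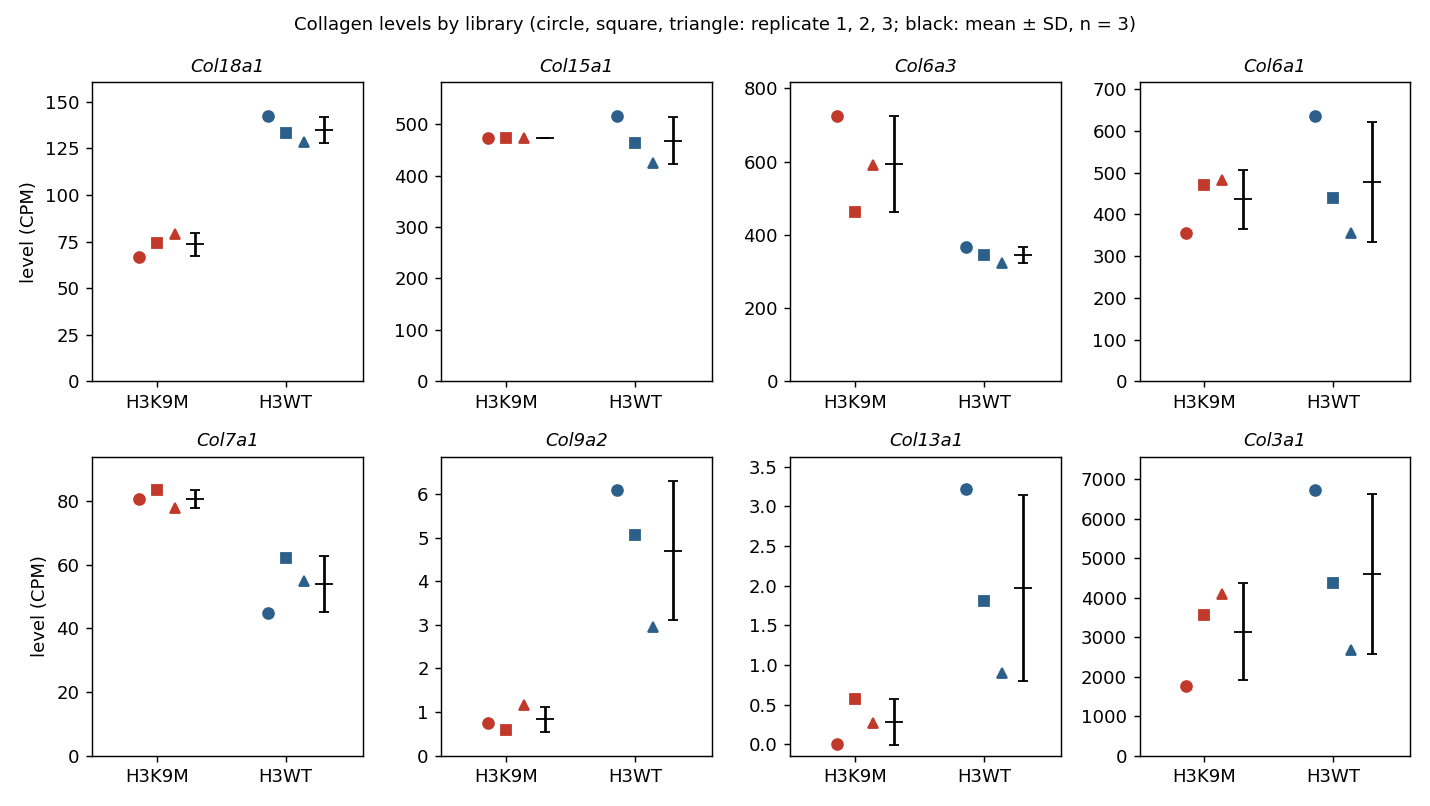
Level in CPM (vertical axis) of 8 collagen genes in the 3 H3K9M (red) and 3 H3WT (blue) libraries, with mean and SD. Col18a1 and Col9a2 are lower and Col6a3 and Col7a1 higher in every H3K9M library, Col15a1 and Col6a1 overlap, Col13a1 has few reads, and Col3a1 spreads from 1759.8 CPM in H3K9M replicate 1 to 6723 CPM in H3WT replicate 1.

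Col7a1 encodes the homotrimer of the anchoring fibrils that tie the basement membrane of skin to the dermis. It stood at 80.5, 83.5 and 77.8 CPM in H3K9M, against 44.7, 62.0 and 54.9 CPM in H3WT. Every H3K9M library was above every H3WT library, with the H3K9M values within 1.07-fold of each other. The means were 80.6 ± 2.81 CPM in H3K9M and 53.9 ± 8.70 CPM in H3WT (SD, n = 3 each). Col7a1 was 1.50 times higher, in log2 terms 0.58 ± 0.11 (edgeR adjusted p = 0.0443). This call, close to the threshold, was kept without H3WT replicate 1 (0.0485 by edgeR, adjusted). It was lost without H3K9M replicates 1, 2 or 3, with edgeR adjusted p-values of 0.114, 0.145 and 0.116. Without H3WT replicates 2 or 3 the values were 0.0655 and 0.0613. The gene lies on chromosome 9 at 108953586 to 108984875. The authors' deposited table gives 0.54 ± 0.14 for Col7a1 (DESeq2 adjusted p = 0.00435).

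The FACIT collagens do not form fibrils themselves but sit on the surface of fibrils made by others. Type IX, from Col9a1, Col9a2 and Col9a3, decorates the type II fibrils of cartilage. Col9a2 stood at 0.751, 0.592 and 1.15 CPM in H3K9M, against 6.09, 5.06 and 2.95 CPM in H3WT. The highest H3K9M library was below the lowest H3WT library. The means were 0.832 ± 0.288 CPM in H3K9M and 4.70 ± 1.60 CPM in H3WT (SD, n = 3 each), and the log2 fold change was -2.50 ± 0.37 (edgeR adjusted p = 0.0197), a level 5.64 times lower. The 95% interval was -3.35 to -1.65. The call was lost without H3K9M replicate 1 (0.0668), H3K9M replicate 2 (0.0777) or H3WT replicate 2 (0.0979), by edgeR adjusted p. With limma-voom the adjusted p was 0.0517, and over all alternatives it ran from 7.46e-09 with DESeq2 to 0.105. The authors' deposited table gives -2.05 ± 0.48 for Col9a2 (DESeq2 adjusted p = 0.00144). The gene is on chromosome 4 at 121039385 to 121055322.

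The other chains of type IX and Col2a1 were scarce in both groups. Col9a3 stood at 0.734, 1.12 and 0.768 CPM in H3K9M, against 1.98, 1.50 and 1.10 CPM in H3WT, with overlap, and its log2 fold change came to -0.80 ± 0.39 (edgeR adjusted p = 0.354). Col9a1 had 3, 16 and 24 reads in H3K9M, against 13, 46 and 32 reads in H3WT. Col2a1, the main collagen of cartilage, had 21, 11 and 13 reads in H3K9M, against 47, 38 and 48 reads in H3WT. The Col2a1 groups did not overlap, but its log2 fold change of -1.53 ± 0.51 (edgeR adjusted p = 0.182) did not pass. Of the exon bases of Col9a3, 6.07% are shared with Tcfl5 on the opposite strand, and whether reads were counted by strand is not given in the sources used here. Of 8 markers of cartilage cells, 6 had a row, and they summed to 89.2, 86.1 and 75.1 CPM in H3K9M, against 175, 138 and 132 CPM in H3WT, without overlap between groups. Of the 6, 5 fold changes were negative and 1 passed, that of the cartilage proteoglycan gene Acan. It stood at 11.3, 11.5 and 11.5 CPM in H3K9M, against 40.2, 44.9 and 49.6 CPM in H3WT. Acan stayed past the threshold in all 13 alternatives. Among the 6, the authors' deposited table calls 2, where it calls 4.10% of all genes. They are Acan and Matn4, both lower in H3K9M, with DESeq2 adjusted p-values of 1.61e-33 and 0.00758. Matn4 was at most 3.74 CPM in any library. DESeq2 run on the deposited counts called 3 of the 6, where it called 7.18% of all genes with an adjusted p. Sox9, a transcription factor of cartilage that heart valve cells also express, made up 71.5% of the marker sum and did not pass. None of the 6 markers was at 0 in any library, and their part in the lower level of Col9a2 was not tested.

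Col12a1, Col14a1 and Col16a1, FACITs of soft tissue, were abundant and did not pass. Col14a1 stood at 174, 360.1 and 498 CPM in H3K9M, against 613, 572 and 416 CPM in H3WT. It was lowest in H3K9M replicate 1, the groups overlapped, and the log2 fold change was -0.63 ± 0.32 (edgeR adjusted p = 0.383). Col16a1 stood at 236, 267 and 303 CPM in H3K9M, against 276, 294 and 308 CPM in H3WT, in log2 terms -0.13 ± 0.10 (edgeR adjusted p = 0.595). Col12a1 lay between 289 and 382 CPM in H3K9M and between 299 and 383 CPM in H3WT. Col20a1 had the largest positive fold change of the class, 0.60 ± 0.40 (edgeR adjusted p = 0.512), at 1.38, 1.93 and 1.12 CPM in H3K9M, against 1.25, 0.649 and 1.03 CPM in H3WT, which overlap. Col19a1 stayed at or below 1.01 CPM and Col22a1 at or below 0.411 CPM in every library. Of the 9 FACIT genes, 1 fell and none rose, where 1.05% of all tested genes were called lower and 0.935% higher. Fold changes were negative for 7 of the 9, with a median of -0.63, and for 50.5% of all tested genes.

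**Figure D3:**
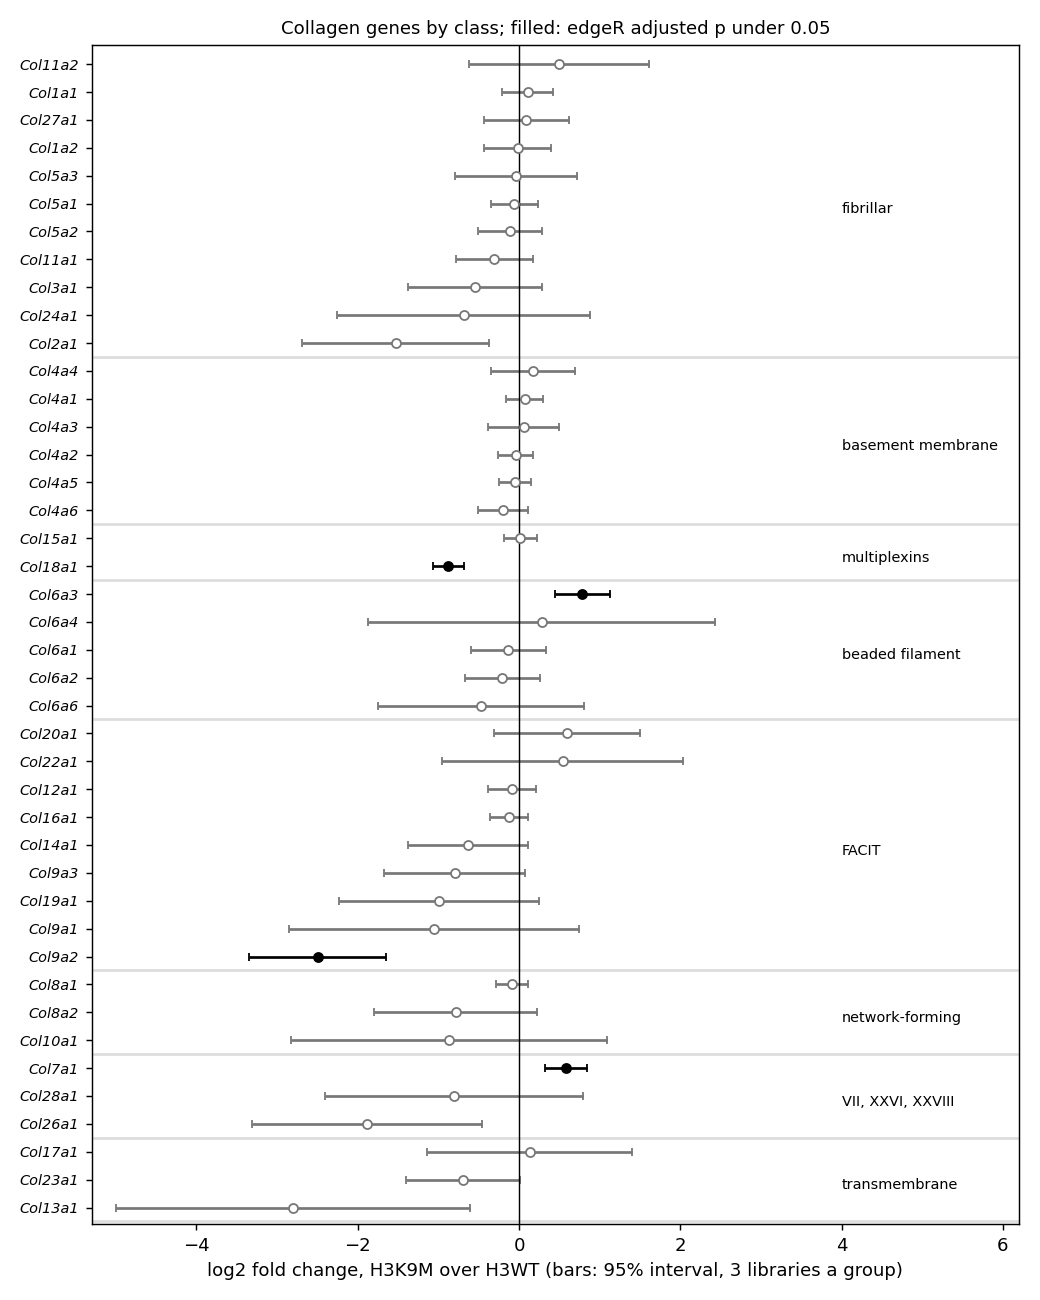
Log2 fold change of H3K9M over H3WT (horizontal axis) for all 42 collagen genes by class, with 95% intervals. Filled points, Col18a1 and Col9a2 to the left of 0 and Col6a3 and Col7a1 to the right, passed at an edgeR adjusted p under 0.05.

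None of the 11 fibrillar genes passed, and 3 fold changes were positive and 8 negative, with a median of -0.057. Type I collagen, the stiff fibril of the myocardium, is built from Col1a1 and Col1a2. Col1a1 stood at 4933, 5895 and 6962 CPM in H3K9M, against 5647, 5911 and 4936 CPM in H3WT. Col1a2 stood at 3589.7, 4699 and 5492 CPM in H3K9M, against 5222, 5044 and 3666 CPM in H3WT. The groups overlapped for both chains of type I. The log2 fold change of Col1a1 was 0.11 ± 0.14 (edgeR adjusted p = 0.761) with a 95% interval of -0.21 to 0.42, and that of Col1a2 -0.016 ± 0.18 (edgeR adjusted p = 0.978) with an interval of -0.43 to 0.40. The ratio of Col1a1 to Col1a2 reads was 1.37, 1.25 and 1.27 in H3K9M, against 1.08, 1.17 and 1.35 in H3WT.

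Col3a1, which forms the finer type III fibrils of distensible tissue, varied most among the 7 collagens above 1000 CPM. It stood at 1759.8, 3569 and 4095 CPM in H3K9M, against 6723, 4359 and 2686 CPM in H3WT. The spread within a group was 2.33-fold in H3K9M and 2.50-fold in H3WT, wider than the difference between the means, 3141 ± 1225 CPM in H3K9M and 4589 ± 2028 CPM in H3WT. The log2 fold change was -0.55 ± 0.37 (edgeR adjusted p = 0.513). Col3a1 was lowest in H3K9M replicate 1 and highest in H3WT replicate 1. Of 12 fibroblast markers, 5 had these same extremes, Dcn, Lum, Tcf21, Mfap4 and Dpt, and 7 did not. Dcn, the proteoglycan decorin, stood at 48.9, 95.7 and 116 CPM in H3K9M, against 228, 114 and 72.4 CPM in H3WT. Among the 7, Thy1 and Fbln2 were higher in every H3K9M library and Fn1, fibronectin, was lower in every one. These are 3 of the 12, where groups did not overlap for 22.6% of all tested genes. None of the 12 passed in edgeR, and 9 fold changes were negative. The authors' deposited table calls 2 of the 12, where it calls 4.10% of all genes. They are Fn1, lower, and Thy1, higher in H3K9M, with DESeq2 adjusted p-values of 0.000406 and 0.00133. Fn1 made up 53.8% of the sum of these markers. The marker sums, 15783, 17393 and 19858 CPM in H3K9M, against 20180.4, 22291 and 19699 CPM in H3WT, overlapped, with the highest in H3WT replicate 2. The part of fibroblast content in the spread of Col3a1 was not tested. The ratio of Col3a1 to Col1a1 reads was 0.357, 0.605 and 0.588 in H3K9M, against 1.19, 0.737 and 0.544 in H3WT, with overlap.

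Type V collagen starts the assembly of fibrils and limits their width. Col5a1 stood at 1842, 2185 and 2626 CPM in H3K9M, against 2382, 2356 and 2184 CPM in H3WT, and Col5a2 at 1501, 1989 and 2539 CPM in H3K9M, against 2059, 2388 and 2049 CPM in H3WT. Both chains of type V were lowest in H3K9M replicate 1 and highest in H3K9M replicate 3, so that the H3K9M libraries spanned the H3WT range. Their log2 fold changes were -0.057 ± 0.13 and -0.11 ± 0.17, with edgeR adjusted p-values of 0.873 and 0.815. The third chain of the type, Col5a3, stood at 25.2, 20.4 and 25.2 CPM in H3K9M, against 40.5, 17.3 and 15.1 CPM in H3WT, where H3WT replicate 1 stood apart within its group. Its log2 fold change was -0.042 ± 0.33 with all libraries and 0.54 without H3WT replicate 1, and neither passed. Col11a1, a minor fibrillar chain first known from cartilage, stood at 195, 317 and 368 CPM in H3K9M, against 365, 412 and 314 CPM in H3WT (log2 fold change -0.31 ± 0.21, edgeR adjusted p = 0.518). Its partner Col11a2 stood at 0.683, 1.78 and 2.37 CPM in H3K9M, against 0.927, 1.55 and 0.955 CPM in H3WT. Col27a1 lay between 17.8 and 32.7 CPM over all libraries, and Col24a1 stayed at or below 0.570 CPM.

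Type IV collagen forms the network of basement membranes, and its 6 genes lie as 3 head-to-head pairs that share a promoter region. None of the 6 passed, 3 fold changes were positive and 3 negative, and the groups overlapped for each gene. Col4a1 stood at 6649, 6319 and 7218 CPM in H3K9M, against 5921, 6656 and 6670.1 CPM in H3WT. Col4a2 stood at 4508, 4436 and 5086 CPM in H3K9M, against 4602, 4964 and 4878 CPM in H3WT. These ubiquitous chains varied little, with a coefficient of variation of at most 7.62% within a group. The log2 fold change of Col4a1 was 0.069 ± 0.10 with a 95% interval of -0.16 to 0.30, and that of Col4a2 -0.042 ± 0.095 with an interval of -0.26 to 0.17.

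The Col4a1 and Col4a2 genes face away from each other on chromosome 8, Col4a1 at 11198423 to 11312826 on the minus strand and Col4a2 at 11312805 to 11449287 on the plus strand, and their annotated exons share 22 bases. Within a library the ratio of Col4a1 to Col4a2 reads was 1.47, 1.42 and 1.42 in H3K9M, against 1.29, 1.34 and 1.37 in H3WT. All 3 ratios were higher in H3K9M, by 0.11 on the log2 scale, while neither gene passed alone. The exact permutation p was 0.1, the smallest possible, and 0.36 adjusted over the 12 pairs.

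The chains of specialised basement membranes were less abundant. Col4a5 stood at 380.4, 366 and 441 CPM in H3K9M, against 407, 414 and 409 CPM in H3WT, and Col4a6, 1.31 kb away on chromosome X, at 28.9, 30.8 and 37.3 CPM in H3K9M, against 31.1, 40.5 and 39.7 CPM in H3WT. Their log2 fold changes were -0.051 ± 0.088 and -0.20 ± 0.14, with edgeR adjusted p-values of 0.829 and 0.518. The ratio of Col4a5 to Col4a6 reads was 13.2, 11.9 and 11.8 in H3K9M, against 13.1, 10.2 and 10.3 in H3WT, with overlap. Col4a3, at 22.8, 15.6 and 15.9 CPM in H3K9M, against 15.5, 15.1 and 21.6 CPM in H3WT, and Col4a4, at 25.2, 13.1 and 19.6 CPM in H3K9M, against 15.3, 15.1 and 20.9 CPM in H3WT, lie on chromosome 1 and are parted by 71 bases. Both overlapped between groups, and the ratio of Col4a3 to Col4a4 reads was 0.905, 1.19 and 0.814 in H3K9M, against 1.01, 0.998 and 1.03 in H3WT.

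**Figure D4:**
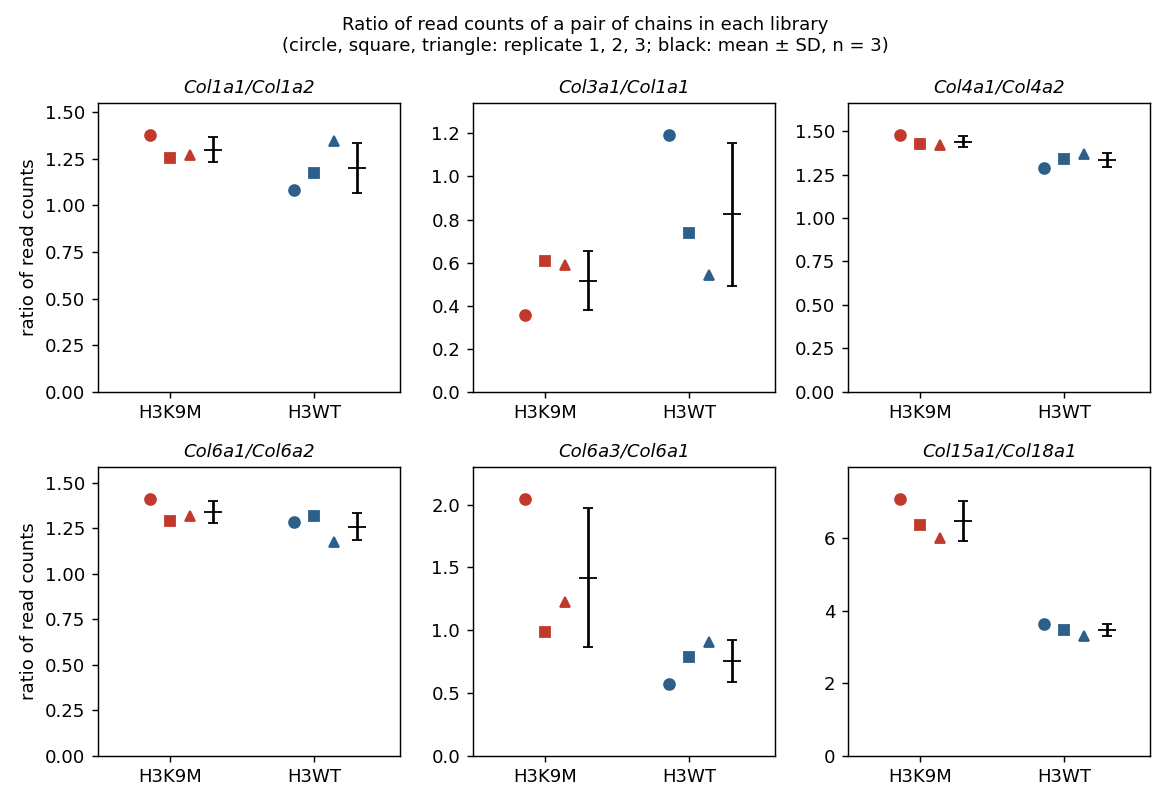
Ratio of read counts (vertical axis, from 0) of a pair of collagen chains in each library, for 6 of the 12 pairs compared, in H3K9M (red) and H3WT (blue), with mean and SD. The ratios of Col4a1 to Col4a2, of Col6a3 to Col6a1 and of Col15a1 to Col18a1 are higher in every H3K9M library, and the other 3 shown overlap.

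Among the network-forming collagens, Col8a1, a short chain made by smooth muscle and endothelial cells, stood at 551, 512 and 605 CPM in H3K9M, against 559.9, 621 and 591 CPM in H3WT, in log2 terms -0.087 ± 0.089 (edgeR adjusted p = 0.688). Its usual partner Col8a2 stood at 0.734, 0.971 and 0.995 CPM in H3K9M, against 2.49, 1.21 and 0.970 CPM in H3WT, with overlap. Col10a1, a collagen of hypertrophic cartilage, stayed at or below 0.445 CPM. None of the 3 passed.

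The transmembrane collagens, which span the cell membrane and can be shed, were at the lower end of detection. Col13a1 had 0, 35 and 15 reads in H3K9M, against 181, 100 and 61 reads in H3WT. In H3K9M replicate 1 it was not detected, and 3 reads, the limit that a count of 0 allows, would be 0.0512 CPM there for counting error only. The groups did not overlap, but the log2 fold change of -2.80 ± 0.96 (edgeR adjusted p = 0.197) had a 95% interval of -5.00 to -0.61 and did not pass. The authors' deposited table gives Col13a1 a log2 fold change of -4.23 ± 0.95 with a DESeq2 adjusted p of 0.000751, so it is called there and not here. From the deposited counts, limma-voom gave a log2 value of -3.91, and with a library left out edgeR's ran from -2.23 without H3K9M replicate 1 to -3.90 without H3K9M replicate 2. DESeq2 run on the deposited counts gave an adjusted p of 0.289, and over all alternatives the adjusted p ran from 0.136 to 0.401. Col23a1 stood at 1.69, 2.39 and 1.69 CPM in H3K9M, against 2.49, 2.56 and 4.29 CPM in H3WT, without overlap, and its log2 fold change of -0.70 ± 0.31 (edgeR adjusted p = 0.311) did not pass. Col17a1, a collagen of hemidesmosomes, stayed at or below 0.889 CPM, with overlap.

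Col26a1 and Col28a1 were likewise scarce and uneven. Col26a1 stood at 0.546, 0.823 and 2.58 CPM in H3K9M, against 8.43, 3.50 and 2.70 CPM in H3WT. The groups just missed each other, at 2.58 CPM in H3K9M replicate 3 and 2.70 CPM in H3WT replicate 3. Its log2 fold change was -1.89 ± 0.63 (edgeR adjusted p = 0.182), while DESeq2 on the same counts gave an adjusted p of 0.0145 and limma-voom 0.193. With a library left out, the log2 value ranged from -1.24 without H3WT replicate 1 to -2.83 without H3K9M replicate 3. The authors' deposited table gives Col26a1 an adjusted p of 0.647. Col28a1, known from peripheral nerve, stood at 3.60, 6.22 and 6.18 CPM in H3K9M, against 19.8, 6.65 and 1.57 CPM in H3WT. Its H3WT libraries spread 12.6-fold, and the sign of its log2 fold change, -0.81 ± 0.70, turned to 0.38 without H3WT replicate 1.

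Of the 42 collagens, 38 have an adjusted p in the authors' deposited table, and 5 of them, 13.2%, are under 0.05, where 4.10% of all genes in that table are. The 5 are Col18a1, Col6a3, Col13a1, Col9a2 and Col7a1, with the same signs as here. DESeq2 run on the deposited counts gave 38 of the 42 an adjusted p and called 5 of those 38, 13.2%, where it called 7.18% of all genes to which it gave one. These 5 are Col18a1, Col6a3, Col7a1, Col9a2 and Col26a1.

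Genes whose products modify, export, cross-link, bind or degrade collagen were read from 5 lists of 63 tested genes. Of these, 1 rose and 1 fell, 3.17% in all, beside 1.99% of all tested genes. None of 19 genes for the modification and folding of chains passed (median log2 fold change -0.0069). Serpinh1, the collagen chaperone HSP47, was at 2465 ± 268 CPM in H3K9M and 2834 ± 244 CPM in H3WT, and P4hb, a subunit of prolyl hydroxylase, at 1067 ± 48.7 CPM in H3K9M and 1055 ± 53.4 CPM in H3WT. The smallest p-values belonged to the lysyl hydroxylase gene Plod1, with a log2 change of 0.26 ± 0.069 (edgeR adjusted p = 0.106), and to P3h3, of the prolyl 3-hydroxylase family, with -0.37 ± 0.12 (edgeR adjusted p = 0.168). The authors' deposited table gives 18 of the 19 an adjusted p and calls 2 of them, where it calls 4.10% of all genes. They are Plod1, higher, and Fkbp7, lower in H3K9M, with DESeq2 adjusted p-values of 0.0234 and 0.0181.

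None of 12 genes for export and propeptide removal passed (median 0.014). Pcolce, an enhancer of the C-proteinase, was at 571 ± 60.1 CPM in H3K9M and 575 ± 59.2 CPM in H3WT, and Bmp1, that proteinase, at 287 ± 9.10 CPM in H3K9M and 271 ± 33.0 CPM in H3WT. Adamts3, a procollagen N-proteinase, had a log2 change of -1.03 ± 0.29 (edgeR adjusted p = 0.115) and Pcolce2 one of 0.68 ± 0.27 (edgeR adjusted p = 0.258), neither past the threshold. None of 6 cross-linking genes passed (median 0.068). Lysyl oxidase genes were among them: Loxl1 was at 1015 ± 81.1 CPM in H3K9M and 975 ± 105 CPM in H3WT and Lox at 762 ± 340.2 CPM in H3K9M and 874 ± 94.7 CPM in H3WT. The transglutaminase gene Tgm2 had a log2 change of 0.34 ± 0.14 (edgeR adjusted p = 0.261) and Loxl2 one of 0.22 ± 0.16 (edgeR adjusted p = 0.532). The authors' deposited table calls none of these 12 export and 6 cross-linking genes.

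Of 10 genes for collagen receptors and uptake 1 rose (median 0.0095), where 0.935% of all tested genes were called higher. Ddr2, a receptor tyrosine kinase activated by fibrillar collagen, stood at 406, 400.1 and 459 CPM in H3K9M, against 290.2, 276 and 236 CPM in H3WT, without overlap. Its log2 fold change was 0.66 ± 0.10 (edgeR adjusted p = 0.0210). The call was lost without H3K9M replicates 1, 2 or 3 or H3WT replicate 2, with edgeR adjusted p-values of 0.0514, 0.0686, 0.0773 and 0.0979. The authors' deposited table gives 0.68 ± 0.11 for Ddr2 (DESeq2 adjusted p = 1.28e-07), the only 1 of the 10 that it calls. Its relative Ddr1 was at 538 ± 12.0 CPM in H3K9M and 512 ± 39.5 CPM in H3WT, and Itgb1, the β chain shared by the collagen-binding integrins, at 1964 ± 112 CPM in H3K9M and 1931 ± 182 CPM in H3WT. Itga11, the α chain of an integrin for fibrillar collagen, stood at 7.38, 14.5 and 20.6 CPM in H3K9M, against 43.3, 35.0 and 22.9 CPM in H3WT, without overlap, and its log2 fold change of -1.25 ± 0.35 (edgeR adjusted p = 0.120) did not pass.

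Of 16 genes for collagen degradation and its inhibitors 1 fell (median -0.16), where 1.05% of all tested genes were called lower. Timp3, a matrix-bound inhibitor of metalloproteinases, stood at 318, 457 and 486 CPM in H3K9M, against 1182, 961 and 648 CPM in H3WT, without overlap. Its log2 fold change was -1.15 ± 0.23 (edgeR adjusted p = 0.0445). The call was kept without H3WT replicate 3 and lost without any of the other 5 libraries, with edgeR adjusted p-values of 0.115, 0.125 and 0.105 without H3K9M replicates 1, 2 and 3 and of 0.0828 and 0.168 without H3WT replicates 1 and 2. Timp1, a soluble inhibitor, stood at 212, 182 and 184 CPM in H3K9M, against 111, 147 and 149 CPM in H3WT, without overlap, and its log2 fold change of 0.51 ± 0.12 (edgeR adjusted p = 0.0811) did not pass. The authors' deposited table gives 14 of the 16 an adjusted p and calls 3, where it calls 4.10% of all genes. They are Timp3 and Mmp2, lower, and Timp1, higher in H3K9M, with DESeq2 adjusted p-values of 0.00515, 0.0479 and 0.00733. Timp2 was at 728 ± 45.5 CPM in H3K9M and 767 ± 50.0 CPM in H3WT.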

How the data were processed

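Polyadenylated RNA of 6 cultures, 3 H3K9M and 3 H3WT, was sequenced by the authors. Per the submitters' processing notes, HISAT2, featureCounts and DESeq2 were used with mouse build mm10; tool versions and strandedness were not given in the sources. Raw read counts per gene were deposited by the authors, with totals of 55550379 to 67994773 per library and a smallest row total of 19. A second deposited table, from DESeq2, holds per the file headers a mean normalised signal, a log2 fold change with its error, a Wald score, and raw and adjusted p-values. Its mean signal is a median of 0.252 of the mean counts here, and the reason is not stated; only its fold changes, errors and adjusted p-values are printed.

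Counts were filtered with filterByExpr (minimum count 10, total 15), which kept 14758 of 15159 genes and all 42 collagens, scaled by TMM, and tested with edgeR 4.0.16 in R 4.3.3 (glmQLFit and glmQLFTest, group only, Benjamini-Hochberg adjustment over all genes tested). A standard error is the absolute log2 fold change divided by the square root of F, and intervals are at 95%. Chain ratios are of counts, with 0.5 added to each, and were tested by two-sided exact permutation over the 6 libraries. Alternatives were DESeq2 1.42.0, limma 3.58.1 (voom), other scalings and filters, a replicate block and leaving out each library. The tests were tried on simulated counts with known 2-fold and 4-fold changes. Of these, edgeR recovered 71% and 85%, DESeq2 79% and 88%, and limma-voom 69% and 84%. False calls were 14 of 170 with edgeR, 36 of 203 with DESeq2 and 10 of 163 with limma-voom. No library differed from another of its group by as little as sampling noise (chi-square per gene of 26.7 or more).

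Positions and exon lengths come from GENCODE M21 (build GRCm38, the same as mm10), which matched 14534 of the 15159 rows, and upstream sequences from RefSeq, which matched 33 of the 42 collagens. The collagens, classes, chain pairs and lists were chosen with earlier results of these data known. Values in every library are given for collagens past the threshold, the 2 most abundant of each class per kilobase, the 3 largest rises and falls among members of at least 1 CPM, and tested chain pairs. From the 5 lists of related genes, those past the threshold, the 2 with the smallest p and the 2 most abundant are named. Those called in the authors' deposited table were added after their values were seen. Acan, Matn4, Npr3, Nos3, Egfl7, Kdr, Smtn, Abcc9, Pln and the fibroblast markers were named after their values were seen.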

Additional observations from a re-analysis of the deposited data

How the results depend on the processing

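Direction was kept by the 4 called collagens under all 13 alternatives, and Col18a1 stayed past the threshold in each. The count of collagens called higher was 0 with the replicate block and 0 to 1 with a library left out, against 2 with all libraries. The count called lower was 1 with limma-voom, 1 with the block and 1 to 2 with a library left out, also against 2. Over all genes, 475 were higher and 544 lower with DESeq2, and 31 and 27 with the block, against 138 and 155. With a library left out, 30 to 149 genes were higher and 30 to 223 lower. Deviations of same-numbered libraries from their group means correlated at -0.16, 0.035 and -0.069. With 3 libraries a group, such values cannot tell whether the replicate numbers pair the libraries. The block fit is therefore given as an alternative. The chain ratio Col5a1 to Col5a2 ranged from -0.0022 to 0.12 (log2) with a library left out and Col4a3 to Col4a4 from -0.24 to 0.032. Among single collagens, 15 changed sign in at least 1 alternative, none of them called in any, the smallest adjusted p being 0.12. With a library left out, their log2 fold changes ranged from -0.051 to 0.090 for Col15a1, -0.35 to 0.47 for Col17a1, -0.022 to 0.22 for Col1a1, -0.16 to 0.13 for Col1a2, -0.085 to 0.38 for Col27a1, -1.31 to 0.38 for Col28a1, -0.14 to 0.25 for Col4a3, -0.067 to 0.38 for Col4a4, -0.20 to 0.059 for Col5a1, -0.31 to 0.063 for Col5a2, -0.29 to 0.54 for Col5a3, -0.30 to 0.13 for Col6a1, -0.34 to 0.039 for Col6a2, -0.19 to 2.03 for Col6a4 and -0.83 to 0.28 for Col6a6. Col5a3 was at 0.12 with limma-voom and 0.096 with the block, and Col17a1 at -0.0076 with limma-voom. The causes were not tested. For the 18 collagens under 10 CPM the median standard error was 0.56, and how much of it comes from read depth was not tested.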
